A study of Homo sapiens with 12 samples.

Results

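The difference in TNF response between the siRNAs was measured on the log2 scale as the change with TNF in p53 siRNA cells minus the change with TNF in control siRNA cells. All 12 of the 12 arrays of the series entered it, 3 in each of 4 groups. The cells were MDA-MB-231, a breast cancer line of human origin in which the tumour suppressor p53 is mutated, and the study asked how the mutant protein shapes the expression that tumour necrosis factor (TNF) induces. The groups were p53 siRNA with TNF, p53 siRNA untreated, control siRNA with TNF and control siRNA untreated. Every culture was grown in 10% serum and transfected with an siRNA. At 48 h it was moved to 0.1% serum, with TNF at 10 ng/ml or without it, for a further 20 h. Total RNA was hybridised to Illumina bead arrays, on which the brightness of a probe stands for the level of its transcript. The labels describe the arrays of a group as biological replicates, and each p-value rests on the spread among them. An siRNA can act on transcripts other than its target, and the design does not separate such effects from those of p53. The files used here name no slide or batch.

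TNF binds its receptor TNFR1, which recruits adaptor and ubiquitin ligase proteins and activates the IKK complex and the kinase JNK. IKK triggers destruction of the inhibitor NFKBIA, NF-kB dimers enter the nucleus, and cytokine, chemokine and adhesion genes are transcribed together with inhibitors that end the signal, such as NFKBIA, TNFAIP3 and TNIP1. Mutant p53 proteins are known to accumulate in tumour cells, and in breast cancer cells they have been described as modifying the NF-kB and JNK branches of the TNF response.

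Median array intensities ran from 226 to 266, and 19810 to 21157 of 47322 probes were detected on an array. Of 12 genes known to be high in MDA-MB-231, 11 were detected on all 12 arrays, and SPARC was undetected. Of 9 genes known to be low in the line, 5 were undetected (ESR1, PGR, CDH1, KRT5 and KRT14), GATA3 and FOXA1 were detected on some arrays, and 2 were detected on all 12. Of 15 leukocyte markers on the array, 4 were undetected (PTPRC, CD3E, ITGAX and SPI1), 3 were detected on all 12 arrays and the others on some. Of 16 fibroblast and endothelial markers, 7 were undetected (PDGFRA, THY1, FAP, CDH5, KDR, VWF and CLDN5), 3 were detected on all 12 arrays and the others on some. Within 3 groups the arrays correlated at 0.992 to 0.993 over the 12507 genes tested. In untreated p53 siRNA cells replicate 3 stood apart. It correlated with its group at 0.974 and 0.977, and 551 of its genes were 2-fold or more away from the average of its group's remaining arrays, against 209 for replicate 1, 100 for replicate 2 and 23 to 47 for each array of the other groups. Results are therefore given with all 12 arrays and, where stated, without that array.

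Promoters are shown for genes whose TNF response differed between the siRNAs, so that binding motifs of factors acting downstream of TNF and interferon can be read beside the values. The sequences are those of RefSeq on GRCh38.p14, from 250 bases before to 50 bases after a gene's start, 5′ to 3′ on the gene's strand. Capitals mark matches on either strand to 4 motifs. The NF-kB motif was GGG, any 3 bases and TTCC, the AP-1 motif TGANTCA, the interferon-stimulated response element GAAA, any 2 bases and GAAA, and the STAT motif TTCNNNGAA. No matches overlapped in the promoters printed. CXCL10, SERPINA3 and TNIP1 were taken by size of the difference, and LTB, EBI3 and GJA1 were added after their values were seen.
EBI3, chr19:4229273-4229572, plus strand: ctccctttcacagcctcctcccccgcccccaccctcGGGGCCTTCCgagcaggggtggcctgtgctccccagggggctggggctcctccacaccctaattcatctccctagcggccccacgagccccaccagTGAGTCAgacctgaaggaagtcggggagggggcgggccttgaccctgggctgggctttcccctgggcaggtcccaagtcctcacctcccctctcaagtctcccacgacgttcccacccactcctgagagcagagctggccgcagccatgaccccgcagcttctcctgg
LTB, chr6:31582376-31582675, minus strand: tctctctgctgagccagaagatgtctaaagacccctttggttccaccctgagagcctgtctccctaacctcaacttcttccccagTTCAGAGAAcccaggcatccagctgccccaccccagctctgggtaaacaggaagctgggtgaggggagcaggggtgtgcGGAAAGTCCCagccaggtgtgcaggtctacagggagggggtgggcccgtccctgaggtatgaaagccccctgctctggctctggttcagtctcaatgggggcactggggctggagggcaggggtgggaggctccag
CXCL10, chr4:76023448-76023747, minus strand: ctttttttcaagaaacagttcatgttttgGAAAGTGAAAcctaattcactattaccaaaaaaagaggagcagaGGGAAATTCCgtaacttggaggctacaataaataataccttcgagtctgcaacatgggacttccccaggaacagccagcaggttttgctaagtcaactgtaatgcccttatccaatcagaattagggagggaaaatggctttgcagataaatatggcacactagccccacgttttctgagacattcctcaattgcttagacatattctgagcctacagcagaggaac
SERPINA3, chr14:94612141-94612440, plus strand: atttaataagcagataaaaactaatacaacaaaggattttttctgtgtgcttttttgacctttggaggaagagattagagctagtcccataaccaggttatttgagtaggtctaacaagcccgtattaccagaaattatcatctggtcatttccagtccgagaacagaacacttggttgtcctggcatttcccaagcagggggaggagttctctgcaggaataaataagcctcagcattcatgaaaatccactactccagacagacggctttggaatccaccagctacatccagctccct
TNIP1, chr5:151080985-151081284, minus strand: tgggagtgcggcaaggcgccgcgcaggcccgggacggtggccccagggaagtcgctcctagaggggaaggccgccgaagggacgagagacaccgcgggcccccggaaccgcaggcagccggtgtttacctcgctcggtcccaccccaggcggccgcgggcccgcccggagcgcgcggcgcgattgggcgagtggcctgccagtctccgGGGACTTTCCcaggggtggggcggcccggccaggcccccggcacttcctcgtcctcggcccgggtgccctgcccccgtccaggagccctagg
GJA1, chr6:121435396-121435695, plus strand: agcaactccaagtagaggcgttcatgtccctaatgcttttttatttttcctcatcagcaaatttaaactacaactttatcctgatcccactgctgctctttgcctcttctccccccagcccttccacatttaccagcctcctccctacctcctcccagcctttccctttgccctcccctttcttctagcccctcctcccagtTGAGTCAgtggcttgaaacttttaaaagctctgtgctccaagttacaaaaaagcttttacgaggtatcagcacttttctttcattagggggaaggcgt

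The table held promoters of 12 of the 17 genes with a lower TNF response in p53 siRNA cells and of 6 of the 10 with a higher response. The NF-kB motif was matched in 5 of the 12 (CXCL10, EBI3, LTB, STX11 and TNIP1) and in 0 of the 6. Counted by promoter it was 6 of 14 and 0 of 6, against 6.52% of all 35116 promoters and 7.47% of those of tested genes. Of the 17 genes, 16 were raised by TNF in control siRNA cells, and the share among TNF-raised genes was not measured. The counts therefore do not tie the motif to the difference between the siRNAs. The CXCL10 match begins 177 bases before the start, the LTB match 86, the EBI3 match 214 and the TNIP1 match 42 bases before it. TNIP1 has a second listed promoter, in which no motif was matched, and a gene was counted where any of its listed promoters held the motif. Both listed promoters of LTB start within a base of each other. They hold the same NF-kB match, which the count by promoter includes for each. The AP-1 motif was matched in EBI3 (1 of the 12) and, 48 bases before the start, in GJA1 (1 of the 6). Its share was 7.71% of all promoters and 5.42% of those of tested genes. The interferon-stimulated response element was matched in CXCL10 and at 2 places in IFIT1, and the STAT motif in IL1B and LTB. Each was thus matched in 2 of the 12 and 0 of the 6. The response element was found in 3.57% of all promoters and 3.04% of those of tested genes, the STAT motif in 7.66% and 6.29%. SERPINA3 held none of the 4 motifs in this window. A match is a string of letters and does not show that a factor binds there.

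The TNF response differed between the siRNAs for 27 of 12507 genes (0.216%; limma, adjusted p under 0.05). It was lower in p53 siRNA cells for 17 genes (0.136%) and higher for 10 (0.0800%). An unadjusted p under 0.05 was reached by 1282 genes (10.3%), and 106 genes (0.848%) differed by at least 1 log2 unit. TNF itself moved many more, 976 genes in p53 siRNA cells (7.80%) and 1199 in control siRNA cells (9.59%), of which 309 were raised and 215 lowered in both. Of the 17 genes with a lower response, 8 were raised by TNF in p53 siRNA cells (3.95% of all genes) and 16 in control siRNA cells (4.89%). Of the 10 with a higher response, 8 were raised by TNF in p53 siRNA cells, 3 were raised and 3 were lowered in control siRNA cells. The choice of genes by the difference favours such effects, so these counts describe the genes and test nothing. Of the 27, 9 lower and 3 higher genes were undetected in at least 1 group, and their fitted differences rest on levels not above background there. Without untreated p53 siRNA replicate 3 the count was 132 (1.06%), 65 higher (0.520%) and 67 lower (0.536%), and it held all 27. Leaving out any 1 array of the TNF-treated p53 siRNA, TNF-treated control siRNA or untreated control siRNA group lowered the count to between 11 and 16. MMP9, EBI3, IDO1, CTSW, CXCL10, SERPINA3, CTSS and PI3 kept their calls in every alternative setting in which they were tested, and each of the other called genes lost its call in at least 1. Of the genes that kept them, only CXCL10 and SERPINA3 were tested in the setting limited to genes detected in every group. MMP9, EBI3, IDO1, CTSW, CTSS and PI3 were undetected in a group and could not lose a call there. The number of arrays limits the precision, with a median standard error of the difference of 0.23 with all arrays and 0.19 without replicate 3.

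**Figure D1:**
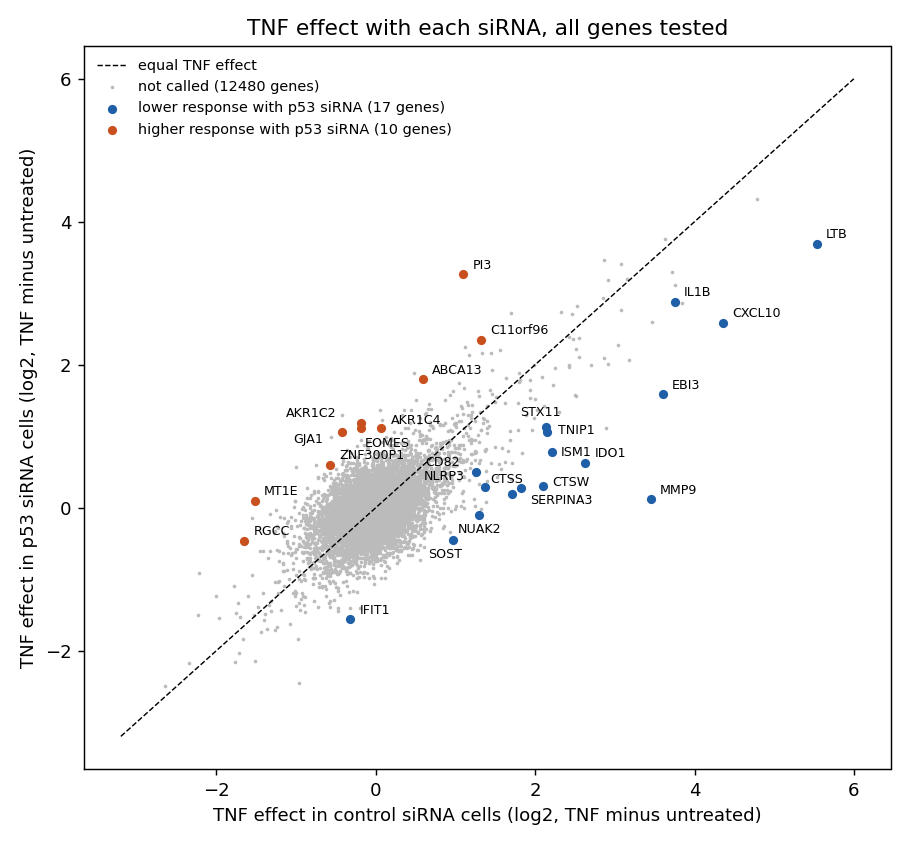
TNF effect in p53 siRNA cells (vertical axis) against that in control siRNA cells (horizontal axis), both log2 TNF minus untreated, with 1 point for each of 12507 genes and a dashed line of equal effect. The 17 genes with a lower response lie below the line, MMP9 farthest at 0.12 against 3.45, and the 10 with a higher response lie above it, PI3 farthest at 3.27 against 1.10.

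The largest fitted difference was that of MMP9, the gelatinase that degrades basement membrane collagen. Its log2 intensities were 5.56, 5.60 and 5.73 in p53 siRNA cells with TNF and 5.48, 5.49 and 5.55 in untreated p53 siRNA cells, against 9.07, 8.96 and 9.06 in control siRNA cells with TNF and 5.54, 5.59 and 5.61 in untreated control siRNA cells. MMP9 was thus detected on the 3 TNF-treated control siRNA arrays and on no other. Under TNF it was at least 5.83-fold lower in p53 siRNA than in control siRNA cells, a bound because the undetected level is unknown. The fitted response difference, with all other groups at background, was -3.33 ± 0.13 (SE, adjusted p = 1.43e-07). MMP9 was undetected in both p53 siRNA groups, so no bound on this difference follows. In bulk RNA, fewer cells expressing a gene and less RNA per cell cannot be told apart. The other matrix metalloproteinases tested lay between -0.50 (MMP15) and 1.02 (MMP1, the interstitial collagenase, with TNF effects of 2.72 in p53 siRNA and 1.70 in control siRNA cells), and none was called.

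The cysteine proteases CTSW and CTSS, both cathepsins, had the same detection pattern as MMP9. CTSW, known from cytotoxic lymphocytes, read 6.15, 6.35 and 6.47 in p53 siRNA cells with TNF, against 7.98, 8.46 and 8.36 in control siRNA cells with TNF, and was undetected on the 6 untreated arrays. Its fitted difference was -1.79 ± 0.19 (adjusted p = 0.00493), and under TNF it was at least 3.43-fold lower with the p53 siRNA. CTSS, which processes antigens for class II presentation, read 6.02, 5.74 and 5.62 in p53 siRNA cells with TNF, against 7.29, 7.18 and 7.03 in control siRNA cells with TNF. Its fitted difference was -1.52 ± 0.19 (adjusted p = 0.00558), and the TNF-treated groups did not overlap for either gene. As for MMP9, no bound on either response difference follows. CTSW was named after its values were seen. The other cathepsins tested lay between -0.33 (CTSK) and 0.78 (CTSH), and none was called. SERPINA3, the secreted protease inhibitor antichymotrypsin and an acute phase protein, read 6.34, 6.76 and 6.62 in p53 siRNA cells with TNF and 6.17, 6.21 and 6.49 without it, against 8.04, 8.23 and 8.29 in control siRNA cells with TNF and 6.44, 6.29 and 6.36 without it. Only the TNF-treated control siRNA arrays stood clear of the rest, and the difference was -1.54 ± 0.19 (adjusted p = 0.00572). SERPINA3 was detected on 3 of 3 of those arrays, on 2 of 3 p53 siRNA arrays with TNF and on 1 of 3 in each untreated group. Its levels outside TNF-treated control siRNA cells thus lie near the detection limit. The related inhibitor SERPINA1 had TNF effects of 1.88 in p53 siRNA and 1.80 in control siRNA cells.

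Among cytokines, the fitted response of the ligands LTB, EBI3 and IL1B was lower in p53 siRNA cells. LTB, lymphotoxin beta, a membrane-bound ligand of the TNF family, read 9.16, 9.51 and 9.53 in p53 siRNA cells with TNF and 5.59, 5.55 and 5.99 untreated, against 11.70, 11.37 and 11.68 in control siRNA cells with TNF and 6.48, 5.74 and 5.91 untreated. TNF raised it with either siRNA. It was undetected in untreated p53 siRNA cells and detected on 1 of 3 untreated control siRNA arrays, so in p53 siRNA cells it was at least 7.76-fold higher with TNF. Under TNF, where every array detected it, it was lower with the p53 siRNA (-2.18), and the fitted response difference was -1.85 ± 0.28 (adjusted p = 0.0254). A lower untreated LTB level in p53 siRNA cells would make that difference smaller, so its sign is not established. A further LTB probe gave -2.25. The LTB call was lost in 7 of the fits that each left out 1 array, with an adjusted p of up to 0.102. EBI3, a secreted subunit of heterodimeric cytokines, read 7.34, 7.47 and 8.0 in p53 siRNA cells with TNF, against 9.83, 9.71 and 9.71 in control siRNA cells with TNF, and was undetected on all untreated arrays. It was at least 2.23-fold higher with TNF in p53 siRNA cells and at least 9.98-fold higher in control siRNA cells. These bounds give no difference. Under TNF, where it was detected, EBI3 was lower with the p53 siRNA (-2.15), and the fitted response difference, with both untreated groups at background, was -2.02 ± 0.23 (adjusted p = 0.00505).

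IL1B, the secreted interleukin 1 beta, differed from these in its level. It read 13.03, 13.06 and 13.08 in p53 siRNA cells with TNF and 10.21, 10.25 and 10.06 untreated, against 11.90, 11.87 and 11.75 in control siRNA cells with TNF and 7.94, 8.23 and 8.08 untreated. Its level was higher with the p53 siRNA under both treatments, by 1.22 under TNF and 2.09 in untreated cells, and its TNF effect was smaller, 2.88 in p53 siRNA against 3.75 in control siRNA cells. The difference was -0.87 ± 0.15 (adjusted p = 0.0496). It was called in 4 of 23 alternative settings and ran from -0.94 to -0.33 over them, with an adjusted p of up to 0.331. Of 22 cytokine and growth factor genes tested these 3 were called lower and 0 higher, and the list's median difference was -0.48, against 0 over all genes. The median ran from -0.62 to -0.04 over the alternative settings.

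CXCL10, a chemokine that draws activated T cells, was the chemokine with a called difference. It read 8.97, 9.22 and 9.18 in p53 siRNA cells with TNF and 6.73, 6.63 and 6.23 untreated, against 11.16, 11.24 and 11.11 in control siRNA cells with TNF and 6.64, 6.77 and 7.02 untreated. The untreated groups overlapped, the TNF-treated p53 siRNA arrays all lay below the TNF-treated control siRNA arrays, and the difference was -1.77 ± 0.21 (adjusted p = 0.00505; -1.92 without replicate 3). CX3CL1, a membrane-anchored chemokine, had the same estimate with a larger error, -1.77 ± 0.35 (adjusted p = 0.0717; 0.0333 without replicate 3). CXCL8, which attracts neutrophils, was at -0.99 ± 0.20 (adjusted p = 0.0840; 0.0425 without it), and another probe of it gave -0.55. The level of CXCL8 was higher with the p53 siRNA under both treatments, by 0.46 under TNF and 1.45 in untreated cells. CCL20 and CXCL2 were undetected in untreated control siRNA cells, so the sign of their difference is not established (fitted values 0.34 and 0.59, adjusted p = 0.644 and 0.497). Of 9 chemokines tested 1 was called lower with all arrays and 3 without replicate 3, and the list median of 0.05 changed sign in 6 of 23 alternative settings.

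TNIP1, which binds ubiquitin chains and the enzyme TNFAIP3 and restrains NF-kB, was the NF-kB regulator with a called difference. It read 13.20, 13.20 and 13.22 in p53 siRNA cells with TNF and 12.10, 12.28 and 12.06 untreated, against 13.85, 13.79 and 13.93 in control siRNA cells with TNF and 11.81, 11.66 and 11.65 untreated. With the p53 siRNA its level was lower under TNF (-0.65) and higher in untreated cells (0.44), and no groups overlapped. The difference was -1.09 ± 0.14 (adjusted p = 0.00816). The NF-kB subunit RELB was at -0.93 ± 0.17 (adjusted p = 0.0594; 0.0328 without replicate 3) and the inhibitor NFKBIA at -0.62 ± 0.17 (0.199; 0.0328 without it). TNFAIP3, which removes ubiquitin chains from signalling proteins, was at -0.78 ± 0.21 and was called in neither (0.195 and 0.117). Under TNF the levels of RELB and NFKBIA were not called different with the p53 siRNA (-0.13 and -0.16, adjusted p = 0.460 and 0.349). In untreated cells both were called higher with it (0.80 and 0.46). TNFAIP3 was lower with it under TNF (-0.78) and unchanged in untreated cells (0). Of 22 NF-kB subunits and regulators 1 was called lower with all arrays and 3 without replicate 3, with a list median of -0.16 in both. Among genes of receptor-proximal signalling 0 of 18 were called, with a median of -0.17, and in the JNK and AP-1 branch 0 of 21, with a median of 0.07.

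Genes known from the interferon response and from innate sensing also differed. IDO1, the enzyme that breaks down tryptophan, read 6.80, 6.48 and 7.03 in p53 siRNA cells with TNF and 6.20, 5.77 and 6.45 untreated, against 8.48, 8.80 and 8.70 in control siRNA cells with TNF and 6.24, 5.89 and 5.96 untreated. Its TNF effect was 0.63 in p53 siRNA cells (adjusted p = 0.0640), and in control siRNA cells it was at least 4.68-fold higher with TNF. The difference was -2.0 ± 0.27 (adjusted p = 0.00816), or -1.60 with the undetected group at its bound. IFIT1, an interferon-induced protein that binds foreign RNA, was the called gene that TNF lowered in p53 siRNA cells. It read 7.48, 7.48 and 7.71 in p53 siRNA cells with TNF and 8.99, 9.10 and 9.26 untreated, against 11.14, 11.17 and 11.17 in control siRNA cells with TNF and 11.45, 11.51 and 11.47 untreated. Its level was lower with the p53 siRNA under both treatments (-3.60 under TNF and -2.36 untreated), and its response difference was -1.24 ± 0.15 (adjusted p = 0.00558). A second, dimmer IFIT1 probe, detected on 3 arrays, gave -0.09. Its relatives IFIT2 and IFIT3 were at -0.64 and -0.54 (adjusted p = 0.170 and 0.536), and IFIT5 was at 0.23 (0.816).

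Of 39 interferon-stimulated genes 2 were called lower, against 0.136% of all genes, and 28 lay below 0, against 6298 of 12507, with a median of -0.16. Without replicate 3, 4 were called lower, 34 lay below 0 and the median was -0.24. The members added were OAS2, which makes an activator of RNA decay, at -1.26 (adjusted p = 0.0484), and the GTPase GBP2 at -0.66 (0.0389). With all arrays OAS2 was at -0.90 (adjusted p = 0.444) and GBP2 at -0.59 (0.165). Each was called in 1 of 23 alternative settings. NLRP3, the sensor of an inflammasome, read 6.64, 6.60 and 6.59 in p53 siRNA cells with TNF and 6.35, 6.33 and 6.29 untreated, against 9.51, 9.80 and 9.73 in control siRNA cells with TNF and 8.31, 8.34 and 8.30 untreated. Its level was lower with the p53 siRNA under both treatments (-3.07 under TNF and -1.99 untreated), and it was detected on 1 of 3 untreated p53 siRNA arrays. In p53 siRNA cells with TNF it lay just above the lowest detected values of those arrays, 6.48 and 6.49. Its p53 siRNA levels are thus near the detection limit. The response difference was -1.08 ± 0.14 (adjusted p = 0.00816), and 2 further probes gave -0.97 and -0.61.

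The other 5 genes with a lower response had adjusted p-values of 0.0359 to 0.0496. ISM1, the secreted protein isthmin, was at -1.43 ± 0.25, with TNF effects of 0.78 in p53 siRNA and 2.21 in control siRNA cells, and another probe of it gave -0.84. SOST, the secreted Wnt antagonist sclerostin, was at -1.42 ± 0.25 and was undetected in TNF-treated p53 siRNA and untreated control siRNA cells. With those groups at their bounds its difference was -0.69. NUAK2, an AMPK-related kinase, was at -1.40 ± 0.23 and was detected, like MMP9, on the TNF-treated control siRNA arrays alone. STX11, a syntaxin of vesicle fusion, was at -1.0 ± 0.18 and was undetected without TNF. For NUAK2 and STX11 the detection pattern gives no bound on the difference. The tetraspanin CD82 was at -0.76 ± 0.13, although another bright probe of it gave -0.17. Another NUAK2 probe gave -0.97. Over the alternative settings SOST was called in 2 of 21, ISM1 in 5 of 22, STX11 in 5 of 21, CD82 in 6 of 23 and NUAK2 in 7 of 21. NUAK2 and STX11 were named after their values were seen.

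**Figure D2:**
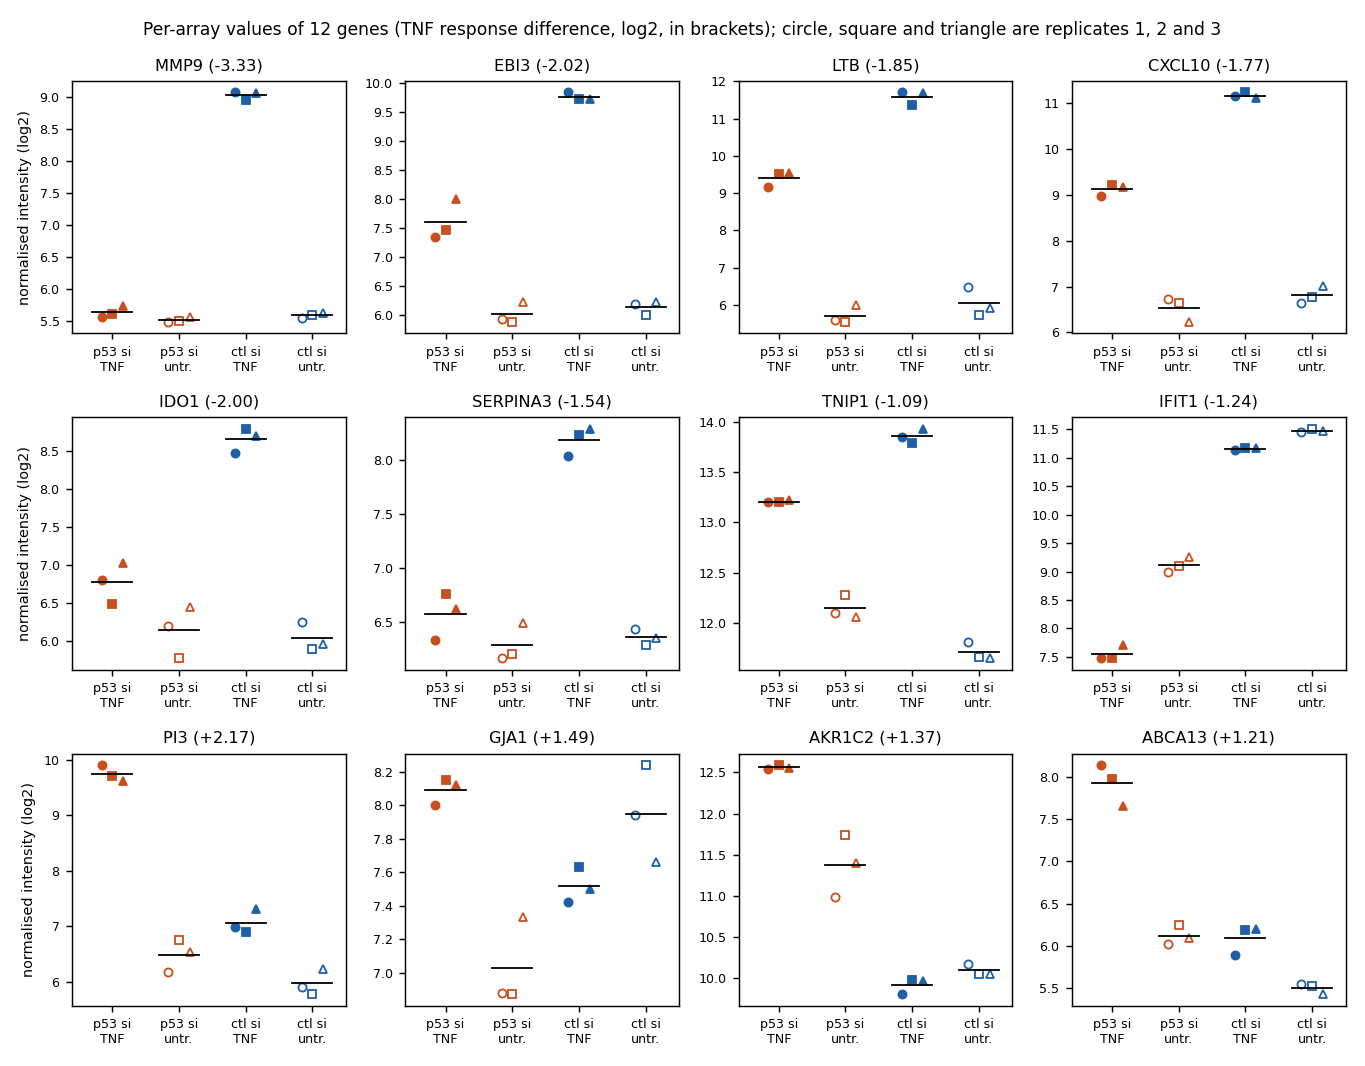
Normalised log2 intensity of 12 genes on each array, 1 panel a gene with its own vertical scale, for p53 siRNA with TNF, p53 siRNA untreated, control siRNA with TNF and control siRNA untreated, with a line at each group mean. MMP9 stands at 8.96 to 9.07 in TNF-treated control siRNA cells and at 5.48 to 5.73 elsewhere, and ABCA13 stands at 7.66 to 8.14 in TNF-treated p53 siRNA cells and at 5.43 to 6.25 elsewhere.

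PI3, which encodes elafin, a secreted inhibitor of neutrophil elastase, had the largest fitted difference among genes with a higher response in p53 siRNA cells. It read 9.91, 9.71 and 9.63 in p53 siRNA cells with TNF and 6.17, 6.75 and 6.53 untreated, against 6.99, 6.90 and 7.31 in control siRNA cells with TNF and 5.91, 5.77 and 6.23 untreated. The TNF-treated p53 siRNA arrays lay above all others, and the fitted difference was 2.17 ± 0.25 (adjusted p = 0.00505). PI3 was undetected in untreated control siRNA cells, so its rise with TNF there is a bound, at least 1.55-fold. A lower untreated level would make the difference smaller, so its sign is not established. Under TNF, where every array detected PI3, it was higher with the p53 siRNA (2.68). PI3 and SERPINA3 were the 2 called members of the acute phase and innate defence list, in opposite directions, and over its 15 tested genes the median was -0.42.

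ABCA13, a member of the ABC transporter family, and EOMES, a T-box transcription factor, were detected mainly in TNF-treated p53 siRNA cells, and both were named after their values were seen. ABCA13 read 8.14, 7.97 and 7.66 in p53 siRNA cells with TNF and 6.02, 6.25 and 6.10 untreated, against 5.89, 6.19 and 6.20 in control siRNA cells with TNF and 5.55, 5.53 and 5.43 untreated. It was at least 2.84-fold higher with the p53 siRNA under TNF, and its fitted difference was 1.21 ± 0.20 (adjusted p = 0.0359), called in 5 of 21 alternative settings and ranging from 0.40 to 1.34 over them. EOMES read 7.22, 7.41 and 7.32 in p53 siRNA cells with TNF and 5.88, 6.26 and 6.44 untreated, against 5.89, 5.78 and 5.94 in control siRNA cells with TNF and 6.21, 6.12 and 5.84 untreated. Its fitted difference was 1.30 ± 0.21 (adjusted p = 0.0359). ABCA13 was undetected outside TNF-treated p53 siRNA cells, and EOMES in both control siRNA groups. For either gene a lower untreated control siRNA level would make the difference smaller, so its sign is not established. C11orf96 was raised by TNF with either siRNA, by 2.35 in p53 siRNA and 1.32 in control siRNA cells (difference 1.03 ± 0.18, adjusted p = 0.0496).

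The aldo-keto reductases AKR1C2 and AKR1C4, enzymes of steroid and prostaglandin metabolism, were raised by TNF in p53 siRNA cells, by 1.19 and 1.12, while the TNF effects in control siRNA cells were -0.18 and 0.07 (adjusted p = 0.614 and 0.825). AKR1C2 read 12.54, 12.59 and 12.55 in p53 siRNA cells with TNF and 10.98, 11.74 and 11.40 untreated, against 9.80, 9.98 and 9.96 in control siRNA cells with TNF and 10.17, 10.05 and 10.05 untreated. The p53 siRNA arrays lay above the control siRNA arrays under both treatments. The differences were 1.37 ± 0.22 for AKR1C2 and 1.06 ± 0.17 for AKR1C4 (adjusted p = 0.0359 and 0.0309), and AKR1C3 was at 0.49 ± 0.13 (0.191). These genes are close in sequence, and their probes may share signal.

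MT1E and RGCC were lowered by TNF in control siRNA cells, and their TNF effects in p53 siRNA cells were not called. MT1E, a metallothionein that binds zinc and copper, read 14.89, 14.85 and 14.96 in p53 siRNA cells with TNF and 14.82, 14.97 and 14.59 untreated, against 12.33, 12.83 and 12.19 in control siRNA cells with TNF and 13.60, 14.16 and 14.17 untreated. The p53 siRNA groups overlapped, the control siRNA groups did not, and the difference was 1.63 ± 0.27 (adjusted p = 0.0359). A dimmer MT1E probe gave 0.12, and metallothionein genes are near-identical, so the gene behind the signal is uncertain. MT1X and MT1G were at 1.04 and 0.79 (adjusted p = 0.0712 and 0.198) and passed without replicate 3 (0.0448 and 0.0471). RGCC, a regulator of the cell cycle, had TNF effects of -0.46 in p53 siRNA cells (adjusted p = 0.0855) and -1.65 in control siRNA cells (adjusted p = 1.85e-05), a difference of 1.19 ± 0.21 (adjusted p = 0.0496).

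GJA1, a connexin of gap junctions, read 8.0, 8.15 and 8.12 in p53 siRNA cells with TNF and 6.88, 6.87 and 7.33 untreated, against 7.42, 7.63 and 7.50 in control siRNA cells with TNF and 7.94, 8.24 and 7.66 untreated. With the p53 siRNA it was lower in untreated cells (-0.92) and higher under TNF (0.57), and the difference was 1.49 ± 0.23 (adjusted p = 0.0291). The pseudogene ZNF300P1 was the gene whose TNF effects were called in opposite directions. It read 8.23, 8.19 and 8.13 in p53 siRNA cells with TNF and 7.66, 7.58 and 7.49 untreated, against 6.96, 7.46 and 7.25 in control siRNA cells with TNF and 7.79, 7.70 and 7.90 untreated. TNF raised it by 0.60 in p53 siRNA cells (adjusted p = 0.0134), its effect in control siRNA cells was -0.57 (adjusted p = 0.0152), and the difference was 1.18 ± 0.18 (adjusted p = 0.0297).

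The same contrast can be read as the siRNA effect under TNF minus that in untreated cells. The siRNA effect was called for 3863 genes under TNF (30.9%) and for 4458 in untreated cells (35.6%). Of the 17 genes with a lower response 16 were called lower with the p53 siRNA under TNF (16.5% of all genes), IL1B being the exception. In untreated cells 2 were called lower (IFIT1 and NLRP3, against 17.9% of all genes) and 3 higher (ISM1, TNIP1 and IL1B, against 17.7%). All 10 genes with a higher response were called higher with the p53 siRNA under TNF (14.4% of all genes), and in untreated cells 7 were called higher and GJA1 lower. The 7 include ABCA13, undetected on all untreated arrays, and PI3, undetected in untreated control siRNA cells, so these calls lie at background level. These counts share arrays with the difference and describe it.

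**Figure D3:**
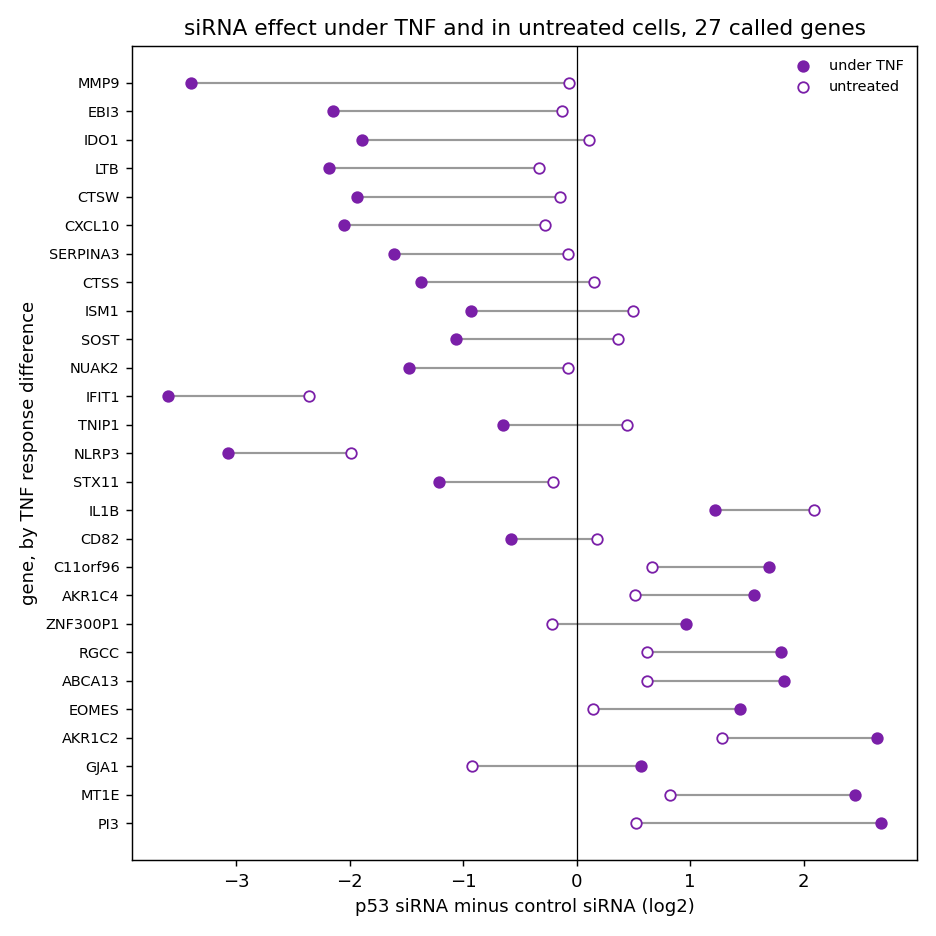
p53 siRNA minus control siRNA (log2) under TNF (filled) and in untreated cells (open) for the 27 genes, ordered by response difference. For MMP9 the effect was -3.40 under TNF and -0.07 untreated, and for PI3 it was 2.68 under TNF and 0.52 untreated.

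Most genes that TNF moved were not called for a difference. Averaged over both siRNAs TNF moved 1930 genes (15.4%), 926 of them up (7.40%) and 1004 down (8.03%), and this average does not use the difference. It was at least 1 on the log2 scale for 154 raised genes. Their median TNF effect was 1.42 in p53 siRNA and 1.47 in control siRNA cells and their median difference was -0.15, against 0 over all genes. Of them 91 lay below 0, against 6298 of 12507 over all genes, 11 were called lower, against 0.136%, and 3 higher, against 0.0800%. Without replicate 3 the median over the same genes was -0.07. A gene raised with only 1 siRNA can enter this set, as MMP9 did (0.12 in p53 siRNA and 3.45 in control siRNA cells). The counts therefore describe the set and test nothing. Over the 119 raised genes detected in every group, 5 were called lower and 1 higher, with a median difference of -0.19. For the 37 genes with a mean effect of at least 2 the median difference was -0.43, and 26 lay below 0. The 59 genes lowered by at least 1 log2 unit had median TNF effects of -1.34 in p53 siRNA and -1.31 in control siRNA cells and a median difference of -0.10, with 0 called lower and 1 higher. With the set chosen anew in each setting that median had no settled sign. It was 0.08 without untreated p53 siRNA replicate 1, -0.23 without replicate 2, -0.16 without replicate 3 and 0.03 with the authors' processed table.

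Among the most strongly raised genes without a call, the cytokine IL32 had TNF effects of 4.32 in p53 siRNA and 4.78 in control siRNA cells, a difference of -0.46 with a 95% interval of -1.06 to 0.14, and -0.58 without untreated p53 siRNA replicate 3. The cytokine IL6 was at 3.76 in p53 siRNA and 3.63 in control siRNA cells (0.14, -0.39 to 0.66), and its difference had the opposite sign, -0.08, without that array. PTGS2, the inducible cyclooxygenase, was at 3.30 in p53 siRNA and 3.72 in control siRNA cells (-0.42, -0.92 to 0.08; -0.22 without the array). IL1A was undetected in untreated control siRNA cells. Its TNF effect was 3.12 in p53 siRNA cells, and in control siRNA cells it was at least 10.6-fold higher with TNF. Its fitted difference was -0.63 (-1.42 to 0.16), or -0.28 with the undetected group at its bound, and the fitted value was -0.28 also without the array. Among the most strongly lowered, CGNL1, a cell junction protein, had effects of -2.49 in p53 siRNA and -2.64 in control siRNA cells (0.15, -0.27 to 0.58; 0.18 without the array). ALDH3A1, an aldehyde dehydrogenase, was at -2.17 in p53 siRNA and -2.34 in control siRNA cells (0.17, -0.52 to 0.86; 0.03 without the array). With intervals of this width the absence of a call does not show equal responses.

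DNA replication and G1/S genes had the highest list median, 0.48, with 0 of 39 called, and all 39 lay above 0, against 6209 of 12507 over all genes. TNF lowered 6 of the 39 in p53 siRNA cells (3.85% of all genes were called lower there), with a median effect of -0.28, and 33 in control siRNA cells (4.69%), with a median of -0.84. Relative to each gene's mean over the 12 arrays, the list's median was -0.83, -0.83 and -0.82 in p53 siRNA cells with TNF and -0.21, -0.67 and -0.58 untreated, against 0.27, 0.28 and 0.21 in control siRNA cells with TNF and 1.03, 1.04 and 1.05 untreated. Untreated p53 siRNA cells thus stood below TNF-treated control siRNA cells. Without replicate 3 the list median was 0.37, 4 genes lay below 0, and 4 were called higher. These were POLE2 of DNA polymerase epsilon at 0.73 (adjusted p = 0.0324), the sliding clamp PCNA at 0.95 (0.0274), the clamp loader subunit RFC4 at 0.80 (0.0263) and GINS3 of the replicative helicase at 0.81 (0.0316). With all arrays POLE2 was at 0.81 (adjusted p = 0.0712), PCNA at 0.76 (0.215), RFC4 at 0.69 (0.137) and GINS3 at 0.94 (0.0712). POLE2 read 9.23, 9.25 and 9.34 in p53 siRNA cells with TNF and 9.73, 9.47 and 9.37 untreated, against 10.43, 10.51 and 10.51 in control siRNA cells with TNF and 11.51, 11.57 and 11.56 untreated. In G2/M and mitosis genes the median was -0.01, of the opposite sign in 8 of 23 alternative settings, with 0 of 36 called and TNF effects of -0.55 in p53 siRNA and -0.58 in control siRNA cells.

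In the remaining lists calls were few. Adhesion, matrix protease and invasion genes had 2 of 21 called lower, MMP9 and CTSS, with a median of -0.13. Heat shock and oxidative stress genes had 1 of 27 called higher, MT1E, with a median of 0.14, and 3 without replicate 3. Wild-type p53 targets had 0 of 20 called and a median of -0.27, class I antigen presentation 0 of 20 and -0.20, and death receptors and apoptosis regulators 0 of 23 and -0.07. With all arrays nothing was called in the lists of cytokine receptors, interferon regulatory factors, TGF-beta response, cholesterol synthesis, unfolded protein response, hypoxia, epithelial, mesenchymal and proteasome genes, with medians from -0.20 (mesenchymal) to 0.06 (proteasome). Leukocyte markers had 0 of 8 called and a median of -0.19, and fibroblast and endothelial markers 0 of 7 and -0.03. The summed log2 level of the leukocyte markers ran from 106.85 to 109.04 in p53 siRNA cells with TNF and 107.32 to 107.73 untreated, against 107.87 to 110.01 in control siRNA cells with TNF and 107.89 to 108.80 untreated. That of the fibroblast and endothelial markers ran from 107.53 to 108.90 in p53 siRNA cells with TNF and 106.49 to 107.49 untreated, against 107.63 to 108.54 in control siRNA cells with TNF and 105.33 to 105.96 untreated. Their part in the differences was not tested.

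**Figure D4:**
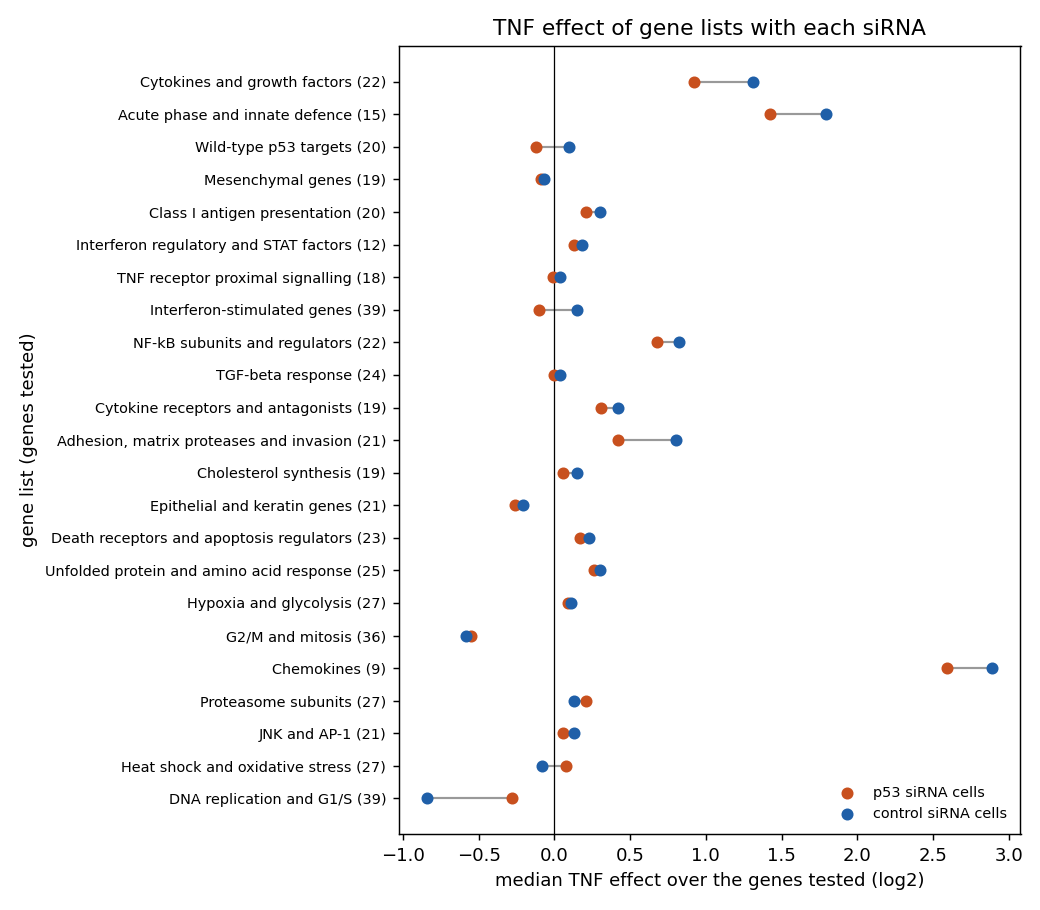
Median TNF effect (log2) over the tested genes of each list in p53 siRNA and control siRNA cells, with lists ordered by median response difference. The medians lay farthest apart for DNA replication and G1/S genes, at -0.28 in p53 siRNA and -0.84 in control siRNA cells, and were 0.92 in p53 siRNA and 1.31 in control siRNA cells for cytokines.

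Leaving out untreated p53 siRNA replicate 3 added 105 genes to the calls, 55 higher and 50 lower. They were chosen by a fit that shares 11 arrays with the fit to all 12, so their sign with all arrays is no test. Some estimates moved with the array itself. CA12, a carbonic anhydrase, was at -1.21 with it (adjusted p = 0.337) and -1.67 without it (adjusted p = 0.0078), and read 8.14 on replicate 3 against 9.82 and 9.21 on the other untreated p53 siRNA arrays. LIFR, a cytokine receptor, was at 0.37 with it and 0.91 without it (adjusted p = 0.849 and 0.0337), and read 8.28 on replicate 3 against 6.58 and 6.73. The amino acid transporter SLC43A2 was at -0.96 with it and -1.40 without it (adjusted p = 0.434 and 0.00742), and read 7.13 on replicate 3 against 8.36 and 8.55. These genes were named after their values were seen. The median residual standard deviation was 0.20 with all arrays and 0.16 without replicate 3, with 8 and 7 residual degrees of freedom.

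**Figure D5:**
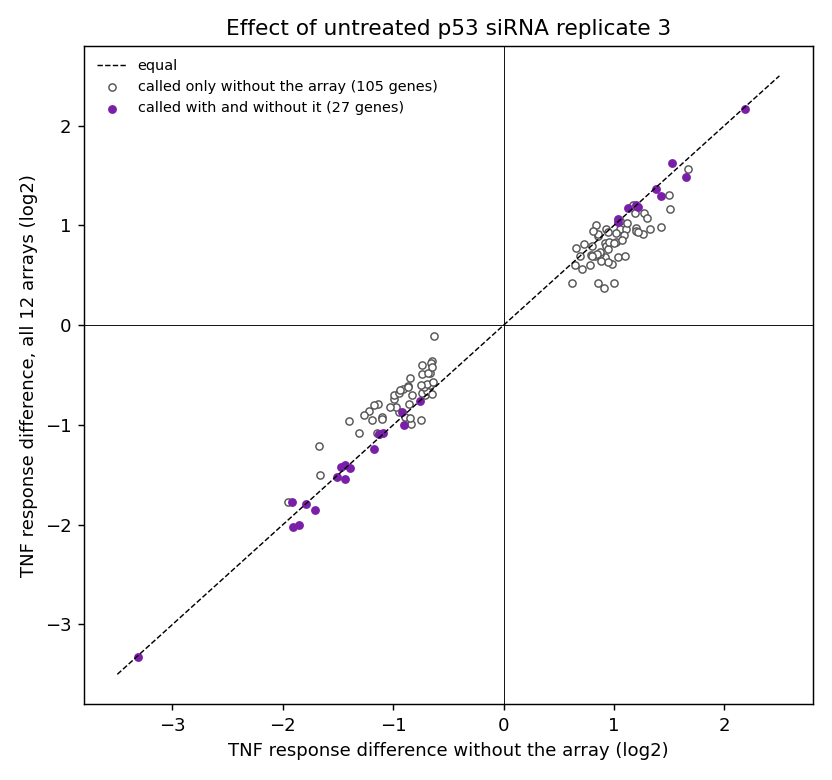
Response difference with all 12 arrays (vertical axis, log2) against that without untreated p53 siRNA replicate 3 (horizontal axis, log2) for the 132 genes called without it, with a dashed line of equal values. The 27 genes called both ways lie near the line, and the 105 called only without the array are mostly nearer 0 on the vertical axis.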

How the data were processed

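The authors deposited, per the file headers, a table of signal intensity and detection p-value by array for 47322 probes. The intensity was taken as linear and not normalised, since array medians differ. The submitters' processing notes name GenomeStudio. Its version and the computation of the detection p-value are not given in the sources used here. The authors' deposited table of processed intensity, whose normalisation is not stated, served as an alternative. Arrays were grouped by source name, with replicate numbers from the description.

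Background was inferred from the detection p-values and removed with neqc (limma 3.58.1, R 4.3.3), followed by quantile normalisation and log2 after adding 16, so log2 values here derive from the intensities that the authors deposited. A probe was kept if detected, at a p under 0.05, on 3 or more arrays. This left 23079 probes, and 16849 of them had 1 gene name in the platform annotation, which can be old. The brightest probe stood for a gene, which gave 12507 genes. The 12 arrays were fitted together by lmFit with 4 group means, then eBayes (4.03 prior and 8 residual degrees of freedom), and 2-sided tests were used with Benjamini-Hochberg adjustment over all genes. Fits without an array kept the values normalised with all 12. Errors are standard errors. The procedure was tested on simulated data.

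Where a group had no detected array for a gene, its level is a bound. The fold is then the brighter group's mean against the mean, per array, of the higher of its own value and the lowest detected value. Named genes are the largest called differences among genes detected in every group, up to 6 a direction with an undetected group and a bound, called members of the gene lists and the 2 strongest TNF genes of lists with few calls, genes with opposite TNF effects, and the strongest TNF genes without a call. Named after their values were seen were relatives of these genes (AKR1C, IFIT, MMP, MT1, serpin, cathepsin and chemokine families), genes called only without untreated p53 siRNA replicate 3, and others so marked. The comparison, the 27 lists and the naming rule were chosen with earlier results of these data known. The target transcript of the p53 siRNA is not reported here, and its depletion was not checked. Alternatives covered background correction, scaling, the authors' table, detection filters, probes, array weights, the variance model, a replicate block and each array left out.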

Additional observations from a re-analysis of the deposited data

Results flagged for a closer look

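The difference between the siRNAs in TNF response was itself tested, and 27 genes passed. With a lower response in p53 siRNA cells these were MMP9 at -3.33, EBI3 at -2.02, IDO1 at -2.0, LTB at -1.85, CTSW at -1.79, CXCL10 at -1.77, SERPINA3 at -1.54, CTSS at -1.52, ISM1 at -1.43, SOST at -1.42, NUAK2 at -1.40, IFIT1 at -1.24, TNIP1 at -1.09, NLRP3 at -1.08, STX11 at -1.0, IL1B at -0.87 and CD82 at -0.76 on the log2 scale. With a higher response they were C11orf96 at 1.03, AKR1C4 at 1.06, ZNF300P1 at 1.18, RGCC at 1.19, ABCA13 at 1.21, EOMES at 1.30, AKR1C2 at 1.37, GJA1 at 1.49, MT1E at 1.63 and PI3 at 2.17. Groups of 3 arrays are too small for a check of outlying arrays by gap and range, and none was made.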

How the results depend on the processing

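The 27 genes kept the sign of their difference in every setting in which they were tested, and MMP9, EBI3, IDO1, CTSW, CXCL10, SERPINA3, CTSS and PI3 were called in each of those settings. Of the others, SOST was called in 2 of 21 settings, IL1B in 4 of 23, STX11 and ABCA13 in 5 of 21, ISM1 in 5 of 22, CD82 and C11orf96 in 6 of 23, NUAK2 and EOMES in 7 of 21, RGCC in 8 of 23, AKR1C2 and MT1E in 9 of 23, ZNF300P1 in 11 of 23, AKR1C4 and GJA1 in 12 of 23, LTB in 14 of 21, NLRP3 in 20 of 22, IFIT1 in 21 of 23 and TNIP1 in 22 of 23. The number of genes called, with those higher and lower in brackets, was 58 (28 and 30) with no background correction, 12 (1 and 11) with median scaling and 52 (26 and 26) with the authors' processed table, against 27 (10 and 17). It was 5 (3 and 2) over probes detected on all 12 arrays, where 11 of the 27 were tested, and 8 (3 and 5) over genes detected in each group, where 15 were tested. Of the genes called in every setting that tested them, CXCL10 and SERPINA3 alone were among those 15, and none was among those 11. With array weights 18 genes were higher, and over all kept probes 3. With the replicate block 17 were called, 3 of them higher. The replicate numbers showed no clear pairing of the arrays. Deviations of same-numbered arrays correlated at -0.13 to 0.19, over 0.1 in 1 of 18 pairs, and 6 of 12 arrays correlated best with their own number. With 3 arrays a group these values cannot settle whether the arrays were paired. Leaving out each array in turn gave 11 to 132 called, 1 to 65 higher and 10 to 67 lower. The count was 11, 11 and 13 without TNF-treated p53 siRNA replicate 1, 2 or 3, 11, 16 and 12 without TNF-treated control siRNA replicate 1, 2 or 3, and 13, 12 and 15 without untreated control siRNA replicate 1, 2 or 3. It was 28, 34 and 132 without untreated p53 siRNA replicate 1, 2 or 3, and array weights gave replicate 3 the lowest weight, 0.15. The median difference of TNF-raised genes, chosen anew in each fit without 1 array, ran from -0.23 to -0.03, the last value without untreated p53 siRNA replicate 3, and that of TNF-lowered genes from -0.23 to 0.08. Apart from the tested sets becoming smaller, the cause was not tested. Single named genes lost a call in 238 combinations of gene and setting, gained one in 56, and no called difference changed sign. Over the settings the difference of MMP9 ran from -3.52 to -1.79 and that of ABCA13 from 0.40 to 1.34. Levels near the detection limit have only a bound, which limits what can be said of the 9 lower and 3 higher genes undetected in a group.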
